A study of Mus musculus with 4 samples.

Results

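Keratins are the intermediate filament proteins of epithelial cells, and 35 keratin genes were measured here among 13705 named genes. A keratin gene was taken as any gene whose symbol in the platform annotation is Krt followed by a digit, read from probes that name 1 gene, so that the keratin-associated proteins of hair (Krtap) are not among them. The 35 genes had 39 probes of 28845 on the array, 31 genes with 1 probe and 4 with 2, and none of these probes lacked a value on any array. They were sorted by the tissue they are known from into 5 simple epithelial keratins (Krt7, Krt8, Krt18, Krt19 and Krt23), 14 keratins of stratified epithelia such as epidermis, cornea and mouth lining, 4 of the hair root sheath, 9 of the hair shaft and 3 others (Krt20, Krt80 and Krt88). The 27 stratified, root sheath and hair shaft keratins are not expected in liver, so their ratios show how far a keratin probe strays from 0 when the tissue should hold little of its transcript.

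The livers were those of C57Bl/6J males, inbred mice, fed for 6 or 24 weeks on an atherogenic diet, called the plain diet here, or on a high-fat version of it. On each of 4 two-colour arrays RNA from 1 of these 4 conditions carried Cy5 and RNA from livers of mice on standard chow carried Cy3. The labels give the chow mice the matching 6 or 24 weeks, but for the plain 6-week array their time on chow is missing. Each condition had 1 array, no array had its dyes swapped, and whether a sample was 1 mouse or a pool, or whether arrays shared a chow sample, is not given in the sources used here. All values are log2 ratios of diet over chow, so 1 unit is a doubling; this takes the deposited logarithms to be base 10, which no source states. Over the probes of the plain 6-week array the interquartile range would be 52.4% in base 10 and 13.5% in base 2. Because the arrays give ratios and not levels, the liver could not be checked by the level of its markers, and no keratin's abundance can be compared with another's. Over all probes the plain arrays spread wider (SD 0.53 at 6 weeks, 0.46 at 24 weeks) than the high-fat ones (0.37, 0.39). Diet was in Cy5 throughout, so the dye preference of a probe and the effect of diet cannot be told apart.

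A keratin filament is built from equal parts of a type I (acidic) and a type II (basic) keratin, and neither type forms a filament alone. Hepatocytes make essentially the Krt8 and Krt18 pair. Bile duct cells make Krt8 and Krt18 too and add Krt7 and Krt19, the usual markers of the duct lineage. In mouse liver Krt8 and Krt18 are known to be induced by injury and to enter the cytoplasmic inclusions called Mallory-Denk bodies, and Krt23 is a keratin of low basal expression known from stressed liver and ductular cells.

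Krt8 and Krt18 were higher than chow on all 4 arrays. Krt8, the type II partner, had ratios of 1.03 and 0.90 with the plain diet at 6 and 24 weeks, against 0.79 and 1.11 with the high-fat diet at 6 and 24 weeks. The 4 arrays lay close together, and diet and duration did not order them. Its mean was 0.96 ± 0.09 (± limma's SE over 4 arrays), which is 1.95-fold, with an adjusted p of 0.00306. Krt18, the type I partner, had 1.30 and 1.22 with the plain diet at 6 and 24 weeks, against 0.70 and 1.05 with the high-fat diet. Both high-fat values lay below both plain values. Its mean was 1.07 ± 0.12 (adjusted p = 0.00504), a 2.10-fold rise. Read as base 2 logarithms the same values would be a 1.22-fold and a 1.25-fold rise, with the same p-values. In liver tissue, more cells that carry a keratin and more of its RNA per cell cannot be told apart.

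Both genes passed under each of the 15 other settings, including each array left out in turn. The adjusted p lay between 0.000217 and 0.0307 for Krt8 and between 8.27e-05 and 0.0471 for Krt18. Each had 1 probe, and RefSeq lists a pseudogene, Krt8-ps, so the Krt8 value is uncertain as far as a probe reads both.

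Of the 35 keratins, 4 passed an adjusted p of 0.05 for diet over chow and all 4 were higher (Krt8, Krt18, Krt23 and Krt34). Of all genes 12.0% passed, 6.25% higher and 5.72% lower, so the share over all keratins, 11.4%, was near the background. Within the family the calls were uneven. Of the 5 simple epithelial keratins 3 passed, and of the 27 keratins not expected in liver 1 passed (3.7%). Krt20 of the gut lining, also a simple epithelium, is not among the 5. Its mean was -0.04 and it did not pass. The median of the means was 0.92 for the simple epithelial keratins and -0.05 for those 27, beside 0.00457 over all genes.

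**Figure D1:**
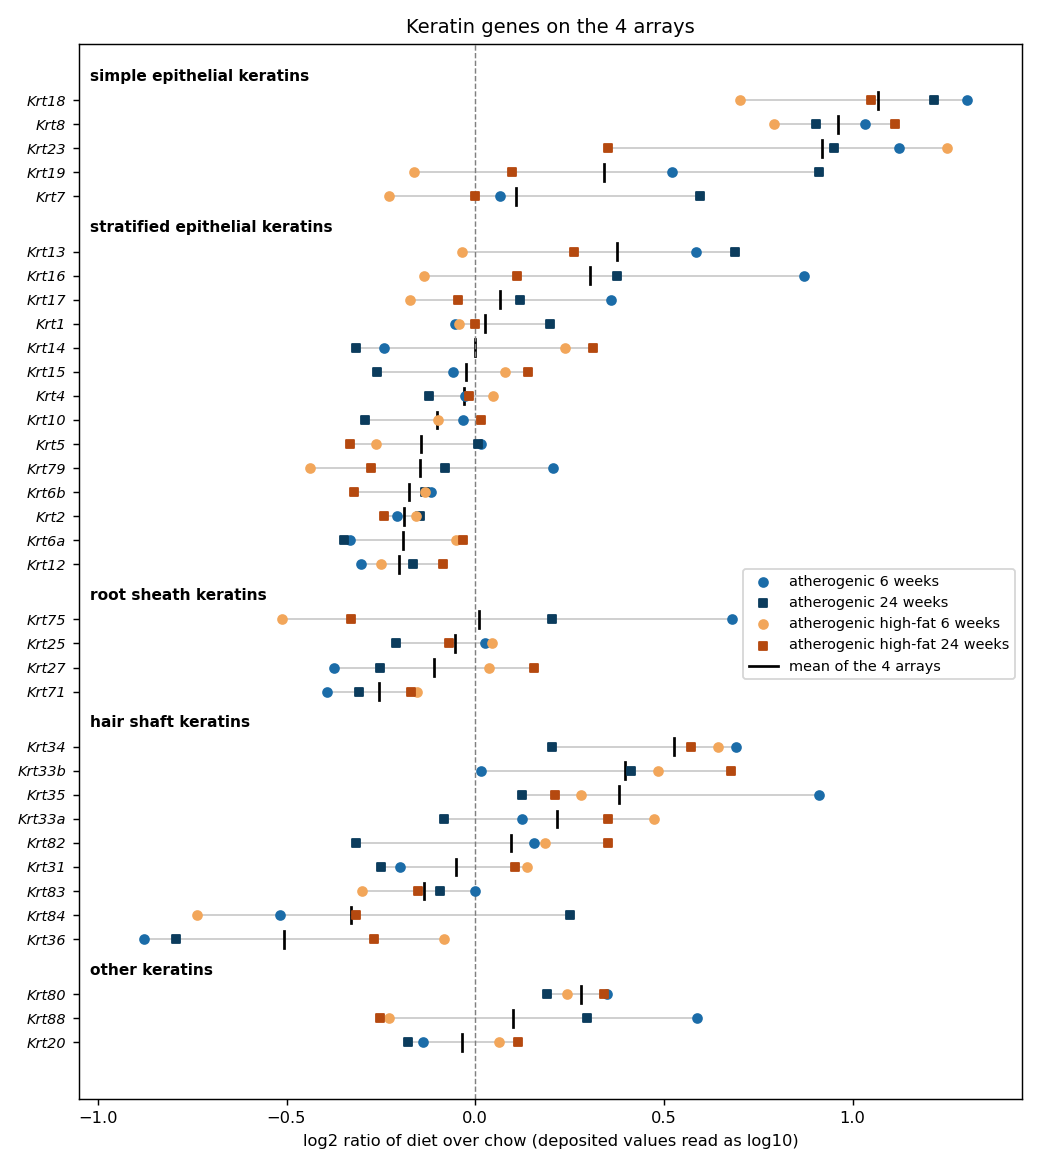
Log2 ratio of diet over chow (horizontal axis) of the 35 keratin genes, 1 row per gene, with 1 point for each of the 4 arrays and a black bar at their mean; a grey line joins the lowest and the highest array. Krt18, Krt8 and Krt23 stand right of 0 on every array, while the means of the 27 epidermal and hair keratins lie between -0.51 and 0.53.

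Krt8 and Krt18 are neighbouring protein-coding genes on chromosome 15 in RefSeq, and Krt18 is the type I gene that lies in the type II cluster. Krt7 lies elsewhere in that cluster, and Krt23 and Krt19 lie in the type I cluster on chromosome 11. RefSeq promoters on GRCm38.p6 matched 22 of the 35 genes. The 250 bases before the annotated start are shown for the 3 simple epithelial keratins that rose and for Krt7, which did not pass, to let the regions of members with like and unlike ratios be compared. Capitals mark the matches found, on either strand, to the motifs searched for, which were the TATA box TATAAA, the GC box GGGCGG, the E-box form CAGGTG and the AP-1 motif TGANTCA.
Krt8, chr15:102004343-102004592, minus strand: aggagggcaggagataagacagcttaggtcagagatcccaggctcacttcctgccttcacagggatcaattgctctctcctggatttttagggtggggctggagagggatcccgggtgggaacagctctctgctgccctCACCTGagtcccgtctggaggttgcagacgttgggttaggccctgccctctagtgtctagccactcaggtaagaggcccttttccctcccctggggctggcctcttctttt
Krt18, chr15:102027966-102028215, plus strand: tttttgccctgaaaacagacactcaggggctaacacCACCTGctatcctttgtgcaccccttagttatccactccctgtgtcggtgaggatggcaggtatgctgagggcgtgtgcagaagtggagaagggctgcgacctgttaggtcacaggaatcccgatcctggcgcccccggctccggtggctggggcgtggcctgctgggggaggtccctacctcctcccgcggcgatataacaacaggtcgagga
Krt23, chr11:99493121-99493370, minus strand: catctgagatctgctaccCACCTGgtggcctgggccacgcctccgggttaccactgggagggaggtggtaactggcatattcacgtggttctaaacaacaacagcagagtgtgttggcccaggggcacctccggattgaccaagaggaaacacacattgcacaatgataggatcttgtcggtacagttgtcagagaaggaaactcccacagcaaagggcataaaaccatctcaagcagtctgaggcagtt
Krt7, chr15:101412153-101412402, plus strand: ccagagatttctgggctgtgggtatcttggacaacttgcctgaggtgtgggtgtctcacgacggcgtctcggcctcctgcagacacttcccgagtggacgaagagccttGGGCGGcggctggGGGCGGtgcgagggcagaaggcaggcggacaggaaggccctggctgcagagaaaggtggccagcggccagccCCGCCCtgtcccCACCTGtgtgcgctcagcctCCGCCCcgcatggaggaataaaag
Each of these 4 windows held CAGGTG on either strand, which 17.2% of all 32851 promoter windows and 8 of 23 keratin windows held. The GC box GGGCGG occurred 4 times before Krt7 and not before Krt8, Krt18 or Krt23. It was in 32.7% of all windows but in only 2 of the 23 keratin windows. Krt19 had no matched window. TATAAA was in none of the 4 windows but in 10 of the 23 keratin windows, among them those of Krt10, Krt31 and Krt34, against 12.4% of all windows. TGANTCA, the AP-1 motif, was in none of the 4 and in 6.75% of all windows. The motifs and the windows shown were chosen with the ratios and the sequences in view, and a match is only a match of letters.

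Krt23, a type I keratin, had ratios of 1.12 and 0.95 with the plain diet at 6 and 24 weeks, against 1.25 and 0.35 with the high-fat diet at 6 and 24 weeks. It was above 0 on all 4 arrays, and the high-fat 24-week array stood apart at the low end. The mean was 0.92 ± 0.15 (adjusted p = 0.0168), a 1.89-fold rise. Without the plain 24-week array the call ended (mean 0.91, adjusted p = 0.0945, over a range of 0.000526 to 0.0945 across the 15 settings), when 2.09% of all genes passed. In the other 14 settings Krt23 passed, though some of them could hardly end its call, as with Krt8. The lower value at 24 than at 6 weeks, by 0.53 ± 0.19, did not pass (adjusted p = 0.439).

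The duct keratins Krt19 and Krt7 did not pass for diet over chow. Krt19, a type I keratin with a very short tail that marks bile duct cells, had 0.52 and 0.91 with the plain diet at 6 and 24 weeks, against -0.16 and 0.10 with the high-fat diet. Both plain arrays lay above both high-fat arrays, and the mean of 0.34 ± 0.18 had an adjusted p of 0.242. Krt19 passed (adjusted p = 0.00845) in 1 of 15 other settings, a model with diet and duration terms, under which 38.1% of all genes passed. Its mean was 0.15 without the plain 24-week array and 0.51 without the high-fat 6-week array. Krt7, its type II counterpart in ducts, had 0.06 and 0.60 with the plain diet and -0.23 and 0.00 with the high-fat diet. The mean was 0.11 ± 0.14 (adjusted p = 0.633) and was -0.054 without the plain 24-week array. The probes of Krt7 disagreed: their means were -0.02 and 0.24, and on the high-fat 24-week array they read -0.28 and 0.28. For both duct keratins the plain 24-week array was the highest of the 4.

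The 27 keratins not expected in liver give the spread against which these ratios can be read. On the plain 6-week array they ranged from -0.88 (Krt36) to 0.91 (Krt35), with an SD between genes of 0.43. On the plain 24-week array the range was -0.79 (Krt36) to 0.69 (Krt13) and the SD 0.30. On the high-fat arrays it was -0.74 (Krt84) to 0.64 (Krt34) at 6 weeks, SD 0.30, and -0.33 (Krt5) to 0.68 (Krt33b) at 24 weeks, SD 0.28. As gene values, each the mean of a gene's probes, Krt8 and Krt18 lay above all 27 on each of the 4 arrays. The margin was narrow on 2 arrays, since Krt8 at 1.03 stood beside Krt35 at 0.91 with the plain diet at 6 weeks, and Krt18 at 0.70 beside Krt34 at 0.64 with the high-fat diet at 6 weeks. Krt23 lay above all 27 on 3 arrays and above 23 of 27 on the high-fat 24-week array. Krt19 lay above all 27 only on the plain 24-week array, and above 22, 7 and 16 of them on the plain 6-week, high-fat 6-week and high-fat 24-week arrays. Krt7 exceeded all 27 on no array. Single probes overlapped more. Of the 2 Krt13 probes, 1 read 1.24 and 1.19 on the plain 6-week and 24-week arrays, above Krt8 and Krt23 there and below Krt18. On the high-fat 6-week and 24-week arrays it read 0.14 and 0.74, below Krt8 and Krt18. The other Krt13 probe read -0.07 and 0.19 on the plain arrays. The difference between the medians of the simple epithelial keratins and of the 27 was 0.97, and it lay between 0.88 and 0.99 with each array left out; no test was made of it.

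**Figure D2:**
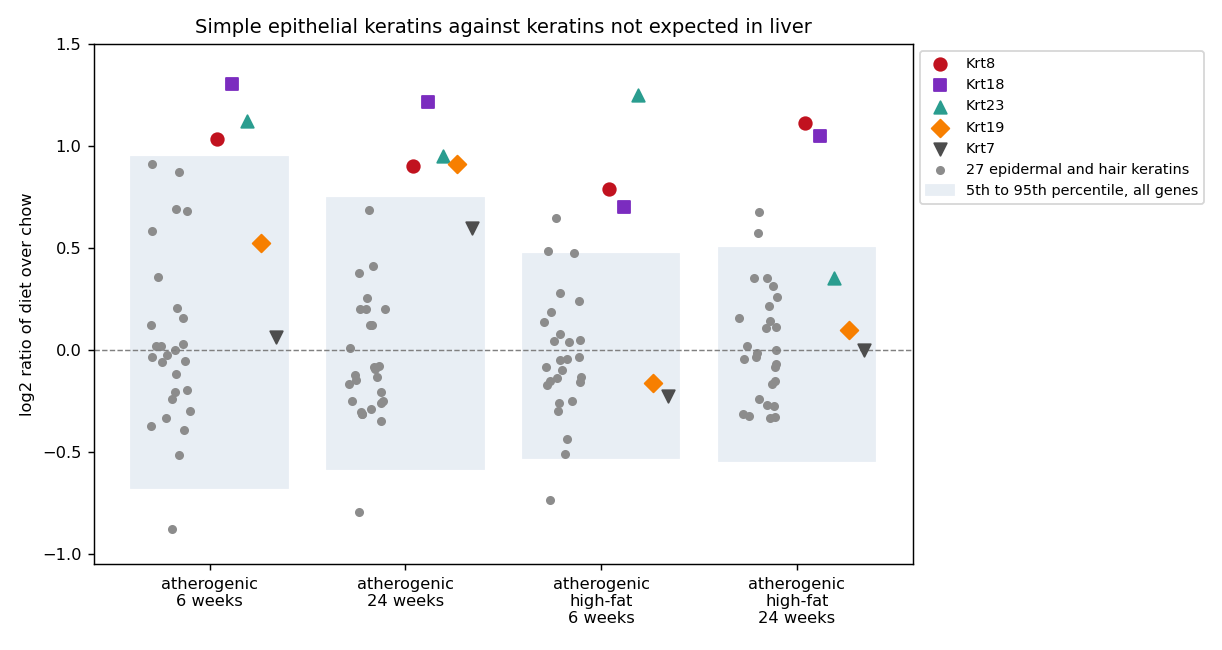
Log2 ratio of diet over chow (vertical axis) on the 4 arrays; coloured symbols are the 5 simple epithelial keratins, grey points the 27 epidermal and hair keratins, and the shaded box spans the 5th to the 95th percentile of all 13705 genes on that array. Each point is a gene, the mean of its probes. Krt8 and Krt18 lie above every grey point on each array, while Krt7 never does.

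Among the 14 stratified epithelial keratins none passed for diet over chow, and their means lay between -0.20 and 0.37. Krt12, the cornea keratin, was lowest, with -0.30 and -0.17 with the plain diet at 6 and 24 weeks, against -0.25 and -0.09 with the high-fat diet. Although below 0 on every array, its mean of -0.20 ± 0.08 had an adjusted p of 0.155. Krt13, a keratin of the mouth and oesophagus lining, was highest, with 0.58 and 0.69 with the plain diet and -0.03 and 0.26 with the high-fat diet (0.37 ± 0.13; adjusted p = 0.117). Its 2 probes had means of 0.83 and -0.08, so the gene's value is that of neither, and 1 of them passed when probes were tested singly. Krt5 and Krt14, the pair of the basal epidermal layer, had means of -0.14 and -0.00166, and Krt1 and Krt10, the pair of the upper epidermis, had 0.03 and -0.10.

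Among the 4 root sheath keratins Krt75 had the highest mean, 0.01, and Krt71 the lowest. As the mean of its 2 probes Krt71 was below 0 on every array, at -0.39 and -0.31 with the plain diet and -0.15 and -0.17 with the high-fat diet. Its mean was -0.26 ± 0.08 (adjusted p = 0.0987). The 2 probes had like means, -0.26 and -0.25, but differed by array. They read -0.14 and -0.47 on the plain 24-week array, and -0.33 and 0.02 on the high-fat 6-week array.

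The means of the 9 hair shaft keratins lay between -0.51 and 0.53. Krt34, a type I hair keratin, rose: its values were 0.69 and 0.20 with the plain diet at 6 and 24 weeks, against 0.64 and 0.57 with the high-fat diet, and its mean was 0.53 ± 0.11 (adjusted p = 0.028). The call ended in 4 of the 15 other settings, namely without the plain 6-week (adjusted p = 0.0657), the high-fat 6-week (0.0899) or the high-fat 24-week array (0.0839) and with the arrays of a diet averaged first (0.0614); the lowest over the 15 was 0.00234. Krt34 neighbours Krt33b and Krt31, hair keratins of similar sequence, which stood at 0.40 and -0.05, and a probe that reads more than 1 of them was not tested for. Krt36 had the lowest mean of all 35 keratins, with -0.88 and -0.79 with the plain diet and -0.08 and -0.27 with the high-fat diet (-0.51 ± 0.15; adjusted p = 0.0789). As a gene value, a keratin that liver is not known to make could reach 0.53 or -0.51, while Krt8, Krt18 and Krt23 stood at 0.92 to 1.07. A single probe could go further, since 1 of the 2 Krt13 probes had a mean of 0.83. Outside the keratins, the epidermis and hair markers Ly6d (2.38) and Tgm3 (1.20) stood above all 3, while 17 of the 20 in that list did not pass. Whether these livers held Ly6d or Tgm3 transcripts was not tested, so their values need not be stray ones. Of the 3 other keratins, Krt80 had 0.35 and 0.19 with the plain diet and 0.24 and 0.34 with the high-fat diet (mean 0.28 ± 0.08; adjusted p = 0.069), and Krt20 of the gut lining had -0.14 and -0.18 against 0.06 and 0.11 (mean -0.04 ± 0.09).

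A single sign on all 4 arrays was shown by 13 of 35 keratins, 7 above and 6 below 0. Over all genes the share was 40.6%, with 20.7% above and 20.0% below 0, so a single sign alone does not mark out a keratin. All 3 simple epithelial keratins that passed were among the 7, which the call itself makes likely. The rest of the 7 were the hair shaft keratins Krt34, Krt33b and Krt35, and Krt80.

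Filament partners were compared as the type II minus the type I ratio on the same array. For Krt8 minus Krt18 the differences were -0.27 and -0.31 with the plain diet at 6 and 24 weeks, against 0.09 and 0.06 with the high-fat diet. Both partners were thus 0.70 or more above chow on every array and within 0.31 of each other. In the other 6 pairs neither partner passed for diet over chow. Krt5 minus Krt14, a pair not expected in liver, ran from -0.64 to 0.32, with both plain arrays above 0 and both high-fat arrays below. Krt6a minus Krt16, the pair of wounded epidermis, reached -1.20 on the plain 6-week array. Krt71 minus Krt27, of the inner root sheath, stayed between -0.33 and -0.02.

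**Figure D3:**
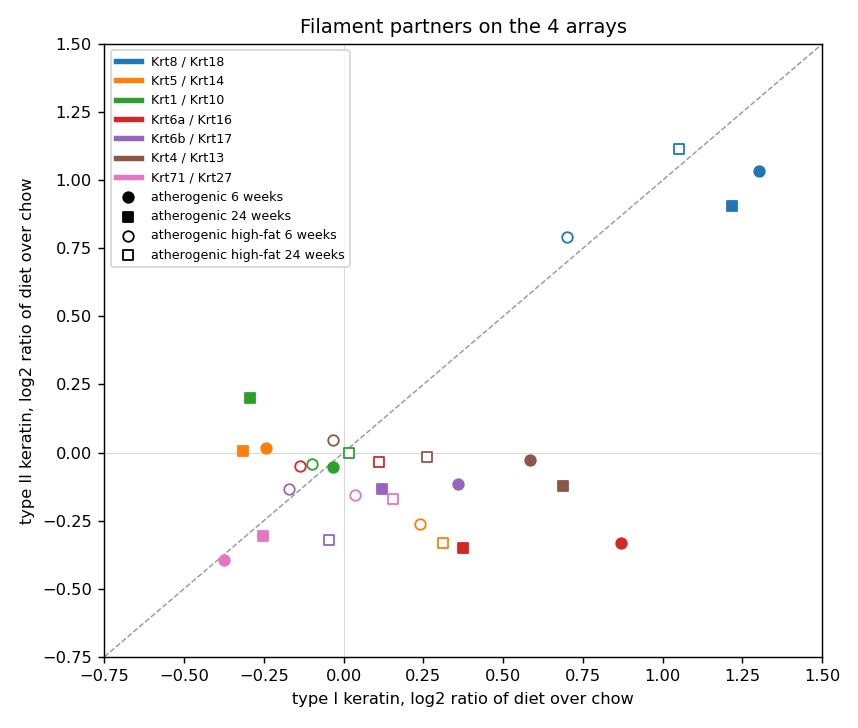
Ratio of the type II keratin (vertical axis) against that of its type I partner (horizontal axis), both as log2 of diet over chow, for 7 pairs, with 1 symbol per array (filled, plain diet; open, high-fat diet; circles, 6 weeks; squares, 24 weeks). Dashes mark equal ratios; the 4 points of Krt8 and Krt18 lie alone at the upper right, and those of the other pairs around 0.

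The second comparison asks whether keratins differed between the high-fat and the plain atherogenic diet, as the mean of high-fat minus plain values within each duration. Of the 35 keratins 5 passed, 2 higher and 3 lower, 14.3%, where 11.2% of all genes passed (3.99% higher and 7.25% lower). With each array centred on its median the keratins split into 1 higher and 4 lower, and with arrays scaled to a common spread into 3 and 7. Krt19 was lower with high fat by 0.75 ± 0.14 (-0.75; adjusted p = 0.0252), from a mean of 0.72 with the plain diet to -0.03. It also passed in all 9 other settings, with adjusted p between 0.0168 and 0.0303, though some of them could hardly end its call. Krt7 differed by -0.44 ± 0.15 and did not pass (adjusted p = 0.0892), but it did with scaled arrays (-0.49, adjusted p = 0.0395) and, for 1 of its probes, with probes tested singly (-0.74, adjusted p = 0.0241). Krt8, at -0.02 ± 0.16 (adjusted p = 0.952), Krt23, at -0.24 ± 0.19 (0.425), and Krt18, at -0.38 ± 0.16 (0.144), did not pass either; with arrays scaled to a common spread all 3 differences were above 0, at 0.36, 0.11 and 0.017.

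The other 4 keratins that passed for high fat are not known as liver keratins. Krt75, a keratin of the hair companion layer, had 0.68 and 0.20 with the plain diet at 6 and 24 weeks, against -0.51 and -0.33 with the high-fat diet. Krt88 had 0.59 and 0.30 against -0.23 and -0.25. Krt36 was higher with high fat by 0.66 ± 0.15 (adjusted p = 0.0364). Krt14, the basal epidermal keratin, was higher by 0.55 ± 0.14 (adjusted p = 0.0472), at -0.24 and -0.32 with the plain diet and 0.24 and 0.31 with high fat. These calls were lost with arrays scaled (Krt36, adjusted p = 0.064), centred on the median (Krt14, 0.0654) or centred within blocks of probe numbers (Krt75, 0.0577, and Krt88, 0.0837). Plain and high-fat arrays did not overlap for 23 of 35 keratins, a share of 65.7%, where 61.4% of all genes did not overlap, and for 18 of the 27 not expected in liver. The plain arrays were the higher for 11 keratins (36.1% of all genes) and the lower for 12 (25.3%). Plain and high-fat arrays lay on opposite sides of 0 for 9 keratins (19.5% of all genes). The difference of Krt19 between the diets was thus of the size that Krt75 (-0.86 ± 0.18) and Krt88 (-0.68 ± 0.15) showed.

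**Figure D4:**
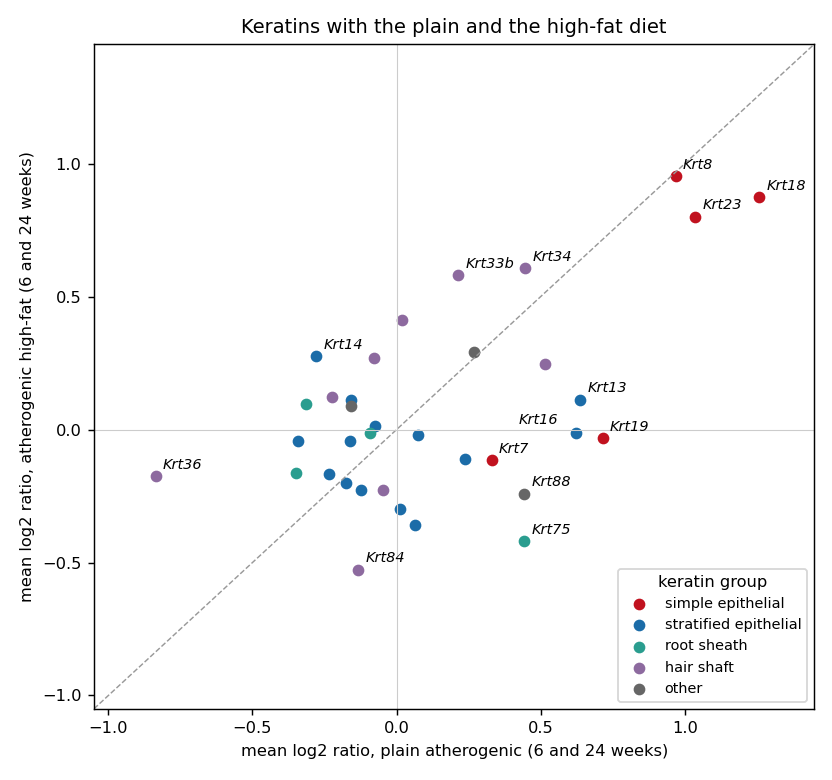
Mean log2 ratio of diet over chow over both durations with the plain atherogenic diet (horizontal axis) and with the high-fat diet (vertical axis) for the 35 keratins, coloured by group; dashes mark equal means. Krt8 lies on the dashed line, and Krt75, Krt19, Krt88 and Krt16 lie below it by 0.86, 0.75, 0.68 and 0.64.

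The third comparison asks whether 24 weeks differed from 6 weeks across both diets. By limma none of the 35 keratins passed, nor did any of the 13705 genes. At an unadjusted p under 0.05 there were 3 keratins, Krt84 (0.60 ± 0.15), Krt23 (-0.53 ± 0.19) and Krt7 (0.38 ± 0.15), where 9.87% of all genes reached it. Krt8 and Krt18 differed by 0.10 and 0.13. The 6-week and 24-week arrays did not overlap for 7 of 35 keratins, where 24.3% of all genes did not overlap.

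Other genes that go with keratins were taken from lists of cell type markers and keratin partners, whose counts stand beside the 12.0% of all genes that passed for diet over chow (6.25% higher, 5.72% lower) and the 11.2% that passed for high fat (3.99% higher, 7.25% lower). Of 18 measured bile duct cell markers other than keratins 3 rose and none fell: the tetraspanin Tspan8 (2.19 ± 0.20), the RNA-binding protein Bicc1 (1.11 ± 0.24) and the annexin Anxa4 (0.38 ± 0.08). That share, 16.7%, was near the background. Tspan8 passed in all 15 other settings, while Bicc1 was lost without the plain 24-week (adjusted p = 0.0758), high-fat 6-week (0.0617) or high-fat 24-week array (0.0715). Anxa4 was lost without any of the same 3 arrays and with the arrays of a diet averaged (adjusted p up to 0.229), and with probes tested singly its probe of lowest p stood at 1.04. The list median was 0.22 and 0.51 with the plain diet at 6 and 24 weeks, against 0.02 and 0.16 with the high-fat diet. The epithelial adhesion molecule Epcam had 0.33 and 2.30 with the plain diet and 0.44 and 0.90 with the high-fat diet, and did not pass (0.99 ± 0.31; adjusted p = 0.0895), though it did with diet and duration terms (0.00276) and with the arrays of a diet averaged (0.000354). Sox9, the transcription factor of the duct lineage, lay between -0.30 and 0.25. Of the 18 markers 14 were highest on the plain 24-week array, as were Krt19 and Krt7, where 29.1% of all genes were highest there. The same array was highest for 8 of 12 keratin partners and 7 of 12 stellate cell markers. These counts were made after the values were seen, and the part of duct cells in the keratin ratios was not tested. For high fat against plain 3 duct markers fell and none rose, 16.7% of the list.

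Of 23 measured hepatocyte markers Apoh rose (1.09 ± 0.21), Apoc3 (-0.54 ± 0.11) and G6pc (-0.59 ± 0.10) fell, and 20 did not pass, so that 13.0% passed, near the background. Without the plain 24-week or the high-fat 6-week array Apoh was lost (adjusted p up to 0.0881), and so was Apoc3 (up to 0.112), which was also lost without the high-fat 24-week array and with the arrays of a diet averaged. G6pc was lost without either high-fat array (up to 0.0615). For high fat against plain 11 hepatocyte markers were lower, 3 were higher and 9 did not pass, a share called of 60.9%, with medians of -0.00332 and 0.34 on the plain arrays against -0.69 and -0.44 on the high-fat arrays. Krt19 differed in the same direction, and the part of this shift in its ratio was not tested. Some hepatocyte markers shared a value exactly. Serpina1a, Hp, Ahsg and Trf all read 0.588 on the plain 24-week array. Serpina1a and Ass1 both read -1.349 on the high-fat 6-week array. Why these values were equal was not tested, so the size of the shift is uncertain. Of 5 measured mesothelial markers, cells that also carry simple keratins, only mesothelin Msln passed and it fell (-0.46 ± 0.11), a call lost with any array left out and with the arrays of a diet averaged (adjusted p up to 0.137). Of 20 epidermis and hair markers other than keratins Ly6d (2.38 ± 0.20) and the transglutaminase Tgm3 (1.20 ± 0.10) rose and Perp, a desmosome protein, fell (-0.43 ± 0.10), so that 15.0% passed. Perp was lost in 6 of 15 other settings, among them any array left out (adjusted p up to 0.146). The list median was -0.02.

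Of 12 measured proteins that tie keratin filaments to desmosomes and to each other, the plakin Ppl rose (0.70 ± 0.13) and none fell, a share of 8.33%. Ppl was lost without the plain 24-week (adjusted p = 0.0765), high-fat 6-week (0.0526) or high-fat 24-week array (0.0546). Of 14 other intermediate filament genes vimentin, Vim, of mesenchymal cells rose by 1.41 ± 0.14, with 1.54 and 1.82 with the plain diet and 1.18 and 1.09 with the high-fat diet. The neurofilament gene Nefl rose by 0.74 ± 0.11, a call lost without the plain 24-week array (adjusted p = 0.074), and 12 did not pass. Of 8 measured proteins of keratin aggregates 1 rose and 7 did not pass, so that 12.5% passed, near the background, and the list median was -0.00685. The 1 that rose was the crosslinking enzyme Tgm2, which joins keratins in Mallory-Denk bodies (0.86 ± 0.13). It had 1.29 and 0.52 with the plain diet and 0.70 and 0.93 with the high-fat diet. Macrophage markers had 6 of 10 higher and 1, Vsig4 (-1.33 ± 0.28), lower, a share of 70.0%, led by Ctss (2.32 ± 0.17). Vsig4 was lost with scaled arrays and without the plain 24-week or the high-fat 6-week array (adjusted p up to 0.0996). The complement genes C1qb and C1qa rose by 1.74 ± 0.17 and 1.14 ± 0.14. Stellate cell markers had 6 of 12 higher, 1 lower and 5 that did not pass, a share called of 58.3%. The rises were led by the collagens Col1a2 (1.75 ± 0.25) and Col3a1 (1.03 ± 0.14), with Dcn at 0.88 and Rgs5 at 0.59. The 1 that fell was Pdgfrb (-0.40 ± 0.08), below 0 on all 4 arrays. It was not followed through the other settings. Without the plain 24-week array Col1a2 (adjusted p = 0.0686), Col3a1 (0.0698) and Rgs5 (0.107) were lost. Rgs5 was also lost without the high-fat 24-week array (0.0821), and Col3a1 with the median of its probes (0.0884), while the probes of lowest p stood at 1.06 for Rgs5 and 2.36 for Col3a1.

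The hair keratin-associated proteins, which are not keratins, are also not expected in liver. Of 26 measured, Krtap19-9b rose (0.85 ± 0.12) and Krtap17-1 (-2.86 ± 0.21) and Krtap5-2 (-0.64 ± 0.10) fell, and 23 did not pass, so that 11.5% passed, near the background. Krtap5-2 was lost without the plain 24-week, high-fat 6-week or high-fat 24-week array (adjusted p up to 0.0797) and Krtap19-9b without the plain 24-week array (0.0742). Krtap17-1 lay between -3.23 and -1.97 on the 4 arrays, so a gene of hair could show a ratio on this array of greater size than any of the 35 keratins. The list median was -0.06.

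**Figure D5:**
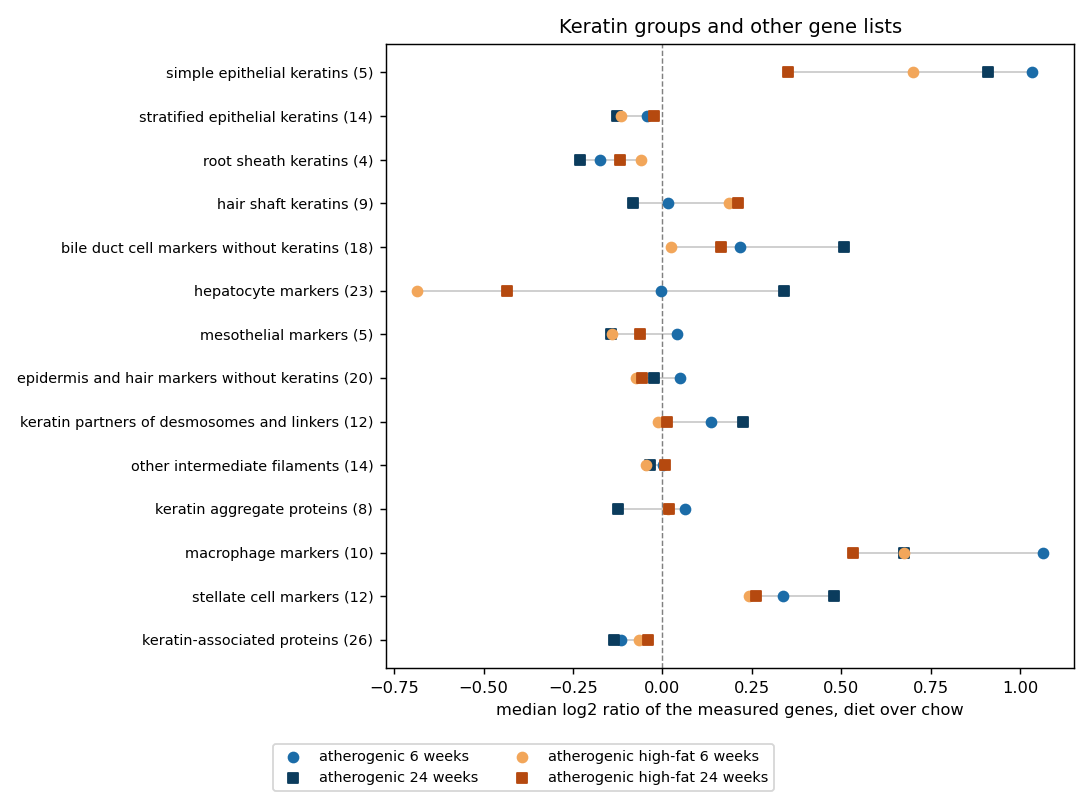
Median log2 ratio of diet over chow (horizontal axis) of the measured genes of each list on each of the 4 arrays, with the number of measured genes in brackets. Simple epithelial keratins and macrophage, stellate cell and bile duct markers lie right of 0 on every array. Bile duct, hepatocyte and stellate cell markers and keratin partners are highest on the plain 24-week array. The medians of the 3 epidermal and hair keratin groups lie between -0.23 and 0.21.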

How the data were processed

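Amplified liver RNA was applied to 2-colour AceGene Mouse Oligo 30K chips, per the labels. GenePix Pro 4.1 read the spots and GeneSpring 7.2 normalized them by LOWESS, per the labels' design text. The authors deposited signed log values taken here as log10 (base inferred) with diet as numerator, from the dyes; no source used here gives background correction or further centring. Deposited medians were -0.019, -0.005, 0.006 and 0.006 on the plain 6-week, plain 24-week, high-fat 6-week and high-fat 24-week arrays.

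Values were converted to log2. Probes missing a value on any array (975 of 28845) were left out, 17637 probes had 1 gene symbol, 64 several and 11144 none listed, and 252 of the 17637 did not match RefSeq (GRCm38.p6) and kept the annotation's symbol. A gene is the mean of its probes. Tests used limma 3.58.1 (R 4.3.3, two-sided, Benjamini-Hochberg over 13705 genes): the mean of the 4 arrays against 0, and, in a model of diet plus duration that leaves 1 degree of freedom, high fat and duration. With 1 array per condition, the p-values reflect how conditions vary and not how animals do, and are too small if arrays share chow samples.

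The members and lists were chosen with earlier results of these data known. Named were the simple epithelial keratins, every keratin past an adjusted p of 0.05, the extremes of each other group, and up to 4 passing members per list. Krt5, Krt14, Krt1, Krt10, Epcam and Sox9, the filament pairs and the place of Krt88 were added after. So were Pdgfrb and the hepatocyte markers named for equal values. Simulated data held 100 genes shifted by 1 log2 unit and 100 shifted by 2. Their variances came from the distribution that limma estimated on these arrays, with independent normal errors. That is the model the tests assume, so the counts cannot show how the tests do where real arrays depart from it. For diet over chow the fit found 91 of the 100 smaller shifts and made 11 false calls. It found 85 and made 6 for high fat, and found 84 and made 11 for duration. Every shift of 2 units was found. Over all genes the real ratios correlated at 0.72 between the plain arrays and 0.82 between the high-fat arrays. Across diets the correlations were 0.42 to 0.61. Diet over chow takes the 4 arrays as independent, so its simulated counts may not hold where arrays of a diet vary together.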

Additional observations from a re-analysis of the deposited data

Results flagged for a closer look

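For 5 keratins the difference between the high-fat and the plain atherogenic diet passed its own test (limma, additive model, adjusted p under 0.05). These were 14.3% of the 35 keratins, where 11.2% of all genes passed. High fat minus plain was -0.75 for Krt19, -0.86 for Krt75 and -0.68 for Krt88, and 0.66 for Krt36 and 0.55 for Krt14. Krt19 is the only one of them known from liver. Plain and high-fat arrays lay on opposite sides of 0 for Krt75, Krt88 and Krt14, as they did for 19.5% of all genes. The Krt19 call was kept in all 9 other settings, some of which could hardly end it, and each of the other 4 was lost in 1 of 9.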

How the results depend on the processing

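The count of 4 keratins for diet over chow became 14, Krt19 among them, with diet and duration terms in the model and 8 at an adjusted p of 0.1, and lay between 3 and 4 with each array left out. Over all genes the 1640 calls became 5219 with those terms, 2909 at 0.1, and 286, 784 and 759 without the plain 24-week, high-fat 6-week and high-fat 24-week arrays; 2880 of 27870 probes passed one by one. The count of 5 for high fat became 10 with scaled arrays, 9 at 0.1 and 3 with arrays centred within blocks of probe numbers, which ended Krt75 and Krt88; centring on the median ended Krt14 and scaling ended Krt36. Over all genes the 1541 calls (547 higher, 994 lower) became 2651 with scaling (640 and 2011), 3269 at 0.1 and 1517 with centring (354 and 1163); probe by probe they were 4411 (2440 and 1971). The cause of these moves was not tested. For duration no keratin passed in any of the 9 other settings, and 10 genes did with scaling. The difference between the medians of the keratin groups stayed between 0.82 and 0.99. Signs turned for values that had not passed: Krt7 for diet over chow was -0.054 without the plain 24-week array and up to 0.22 without another, and for high fat Krt18, Krt23 and Krt8 were 0.017, 0.11 and 0.36 with scaled arrays and Krt8 was 0.15 with block centring. Sox9 for diet over chow was 0.0079 with block centring and lay between -0.11 and 0.078 with each array left out. Block centring and averaging the arrays of a diet first were chosen after seeing the data. The threshold of 0.1 could end no call but is counted among the settings. Leaving out an array from the high-fat and duration model leaves no residual degree of freedom and was not run. No fit with a replicate block was made, since the labels give no replicate numbers; the high-fat comparison sets the diets against each other within each duration. The number of arrays, 1 per condition, limits the precision of every value.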
